A study of Homo sapiens with 6 samples.

Results

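The NDRG family (N-myc downstream-regulated genes) has 4 members, NDRG1, NDRG2, NDRG3 and NDRG4. Their transcripts were measured in xenografts of BxPC-3, an established human pancreatic adenocarcinoma line, with and without the oral iron chelator Deferasirox (DFX). Members were found by gene symbol among the non-control spots of the array. They were carried by 5 of 50599 probes, 1 each for NDRG1, NDRG3 and NDRG4 and 2 for NDRG2, and were 4 of 34423 named genes. All 5 probes passed the detection filter that left 31807 probes for testing, and all 5 were well above background on every array.

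Cells had been injected under the skin of the back of female BALB/c nu/nu mice aged 8 to 10 weeks, in medium mixed with Matrigel. Nude mice lack T cells but keep other host cells. Treatment started at a tumor volume of 150 mm3 and ran for 21 days with 3 gavages a week. The DFX group (n = 3 tumors) received 200 mg/kg DFX suspended in saline, and the Control group (n = 3 tumors) received the vehicle alone. Each tumor was hybridized to its own one-color human 60-mer array. The comparison asks which transcripts differed in tumors of DFX-treated mice. A tumor is a mixture, so fewer cells of a type and less RNA per cell cannot be told apart, and host mouse RNA could also bind the human probes.

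NDRG1 encodes a cytoplasmic stress-responsive protein. Its gene is known to be induced by hypoxia, through the hypoxia-inducible factors, and by iron depletion, and to be repressed by N-myc and c-Myc. The prolyl hydroxylases that mark hypoxia-inducible factors for destruction need iron, which links iron chelation to the same pathway. NDRG1 has been described as a metastasis suppressor in pancreatic and other carcinomas. NDRG2 is abundant in astrocytes and muscle, NDRG3 protein has been described as stabilized by lactate in hypoxia, and NDRG4 is expressed mainly in brain and heart.

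Probes are the only sequence read by this assay, and the last 30 bases of the NDRG2, NDRG3 and NDRG4 probes are shown because each gene's values rest on the few bases it was probed by. They are given 5′ to 3′ as designed, with hg19 positions of the whole 60-mer from the array annotation. Capitals mark AATAAA, the canonical polyadenylation signal, which was searched on the probe strand only. It was in the last 30 bases of 3074 of 50599 probes (6.08%).
NDRG2, brighter probe, chr14:21484932-21484991, minus strand: tgctataacAATAAActgtagaggaatctg
NDRG2, dimmer probe, chr14:21485242-21485301, minus strand: agacttgctggtgggttagtggtcctcagg
NDRG3, chr20:35280840-35280899, minus strand: tggaagccaaattaaattgatacagaaccc
NDRG4, chr16:58547109-58547168, plus strand: ttgtctctttggtcaaggtgaacttttaat
The motif was present in the brighter NDRG2 probe and in none of the other 3 stretches.

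All 6 arrays lay on 1 slide, with the Control tumors in row 1 and the DFX tumors in row 2, so row and treatment cannot be told apart. Between 54.1% and 59.8% of spots were well above background on an array, the lowest on that of DFX replicate 2, and no spot was saturated. Log2 intensities correlated between arrays at 0.983 to 0.990 within the Control group, 0.984 to 0.987 within the DFX group and 0.980 to 0.988 between groups. Of the 31807 tested probes, 2675 (8.41%) had an unadjusted p under 0.05 in limma, the threshold used here for a call. None (0%) had an adjusted p under 0.05, the lowest being 0.0675. The groups did not overlap at 4927 probes (15.5%). None of the 5 NDRG probes was called (0 of 5), and 1 of the 5, that of NDRG4, had groups that did not overlap. The small number of arrays limits the precision of every value below.

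**Figure D1:**
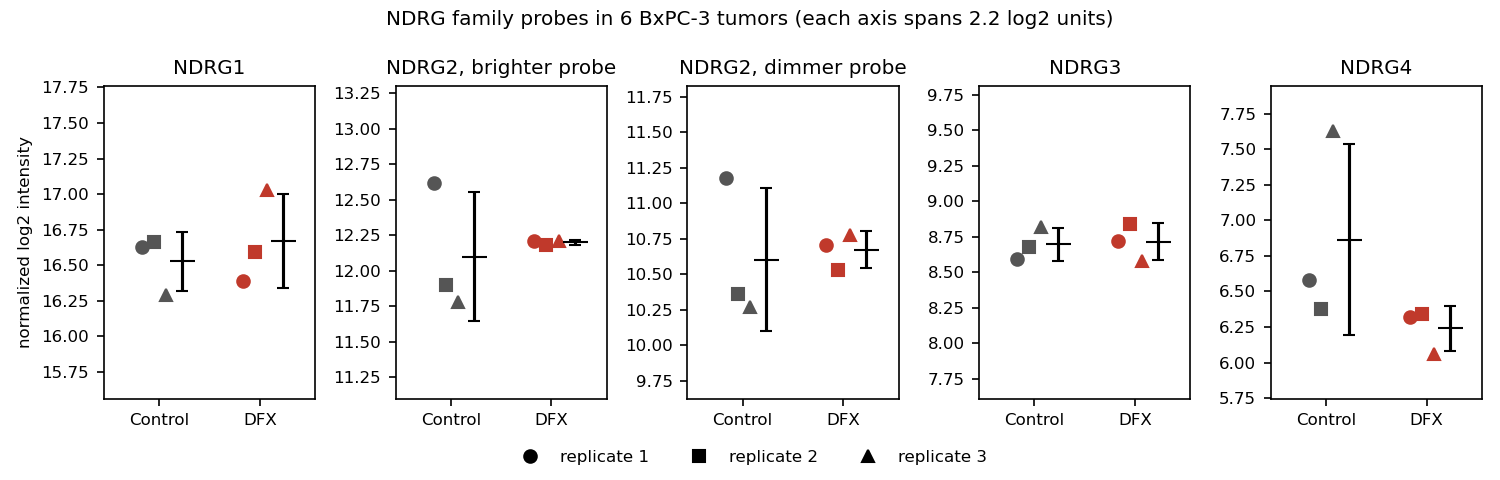
Normalized log2 intensity (y axis) of each NDRG probe in the 3 Control and 3 DFX tumors, 1 panel per probe. Each point is 1 tumor, the shape gives its replicate number, horizontal ticks are group means and bars are SD. NDRG4 is the panel whose groups do not overlap, with Control replicate 3 at 7.63 standing apart from the rest.

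The NDRG1 difference between groups was within the spread of the tumors. Its probe lies at chr8:134249719-134249778 (hg19, minus strand) and represents NM_006096. Its normalized log2 intensity was 16.63, 16.66 and 16.29 in Control replicates 1 to 3. It was 16.39, 16.59 and 17.03 in DFX replicates 1 to 3. The highest value was thus in a DFX tumor and the lowest in a Control tumor, while among the other 4 tumors both Control values lay above both DFX values. The means were 16.53 ± 0.20 (SD, n = 3) and 16.67 ± 0.33 (SD, n = 3). The difference was 0.14 (SE 0.20) on the log2 scale, a fold of 1.1 with a 95% interval from 0.78 to 1.55. The limma adjusted p was 0.861. Of all tested probes, 54.7% differed between groups by as much or more. An exact two-sided permutation test gave p = 0.6, where 3 tumors against 3 cannot go below 0.1.

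A spot's brightness depends on the probe as well as on the transcript. The NDRG1 spots were far from both ends of the scanner range, so neither limit bounded this difference. Between 125 and 294 of the 58717 spots of an array were brighter, that is 0.213% to 0.501%. The mean signal was 1089 to 1996 times the local background, and reached 143738 against a saturation value of 778283. Before normalization the processed signal was 98448, 97370 and 99728 in the Control tumors. It was 79121, 94588 and 131706 in the DFX tumors. The Control tumors thus lay close together before quantile normalization and further apart after it, with Control replicate 3 moved down. Leaving out DFX replicate 3 turned the difference to -0.042.

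NDRG2 values of the Control tumors were spread widely around those of the DFX tumors. At the brighter probe the log2 intensity was 12.62, 11.90 and 11.78 in the Control tumors. It was 12.21, 12.18 and 12.21 in the DFX tumors. All DFX values lay inside the Control range. The means were 12.10 ± 0.45 (SD, n = 3) and 12.20 ± 0.02 (SD, n = 3). The difference was 0.10 (SE 0.23), a fold of 1.07 with a 95% interval from 0.73 to 1.59 (limma adjusted p = 0.915). Control replicate 1 decided the size of this value. Without it the difference was 0.36 and passed the unadjusted threshold, and without Control replicate 3 it was -0.059.

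Both NDRG2 probes represent NM_201535, with 250 bases between them, and ordered the Control tumors alike. The dimmer probe read 11.18, 10.36 and 10.27 in the Control tumors. It read 10.71, 10.53 and 10.78 in the DFX tumors. Its difference was 0.069 (SE 0.26, limma adjusted p = 0.954). The brighter probe exceeded the dimmer by 1.44, 1.54 and 1.51 in Control and by 1.50, 1.65 and 1.44 in DFX tumors. That offset varied by 0.22 over the 6 tumors, against 0.84 for the brighter probe itself. The spread of NDRG2 among Control tumors was therefore seen at both probes.

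NDRG3 was the steadiest member. Its log2 intensity was 8.59, 8.68 and 8.82 in the Control tumors. It was 8.72, 8.84 and 8.58 in the DFX tumors. The groups covered nearly the same range. The means were 8.70 ± 0.11 (SD, n = 3) and 8.71 ± 0.13 (SD, n = 3). The difference was 0.013 (SE 0.12), with a 95% interval of the fold from 0.82 to 1.24, the narrowest of the family (limma adjusted p = 0.985). As large a difference was seen at 95.2% of tested probes.

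After normalization NDRG4, which is expressed mainly outside the pancreas, read lower in all 3 DFX tumors than in any Control tumor. Its log2 intensity was 6.58, 6.38 and 7.63 in the Control tumors. It was 6.32, 6.34 and 6.06 in the DFX tumors. The highest DFX value was close below the lowest Control value, and Control replicate 3 stood far above the other 5 tumors. The means were 6.87 ± 0.67 (SD, n = 3) and 6.24 ± 0.16 (SD, n = 3). The difference was -0.62 (SE 0.34), a fold of 0.65 with a 95% interval from 0.37 to 1.15. It was not called (limma adjusted p = 0.655). The exact permutation p was 0.1, the smallest that 3 against 3 allows, and 15.5% of all tested probes also had groups that did not overlap.

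The size of the NDRG4 difference rested on 1 tumor and on the background correction. Without Control replicate 3 it was -0.24. From the raw mean signal, without background subtraction, it was -0.38. The spots read 2.16 to 4.53 times their local background. The processed signal was 96.8, 76.4 and 227 in Control and 76.9, 77 and 73.2 in DFX tumors, so that only Control replicate 3 was clearly brighter before normalization. The groups overlapped there, with Control replicate 2 below DFX replicates 1 and 2.

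**Figure D2:**
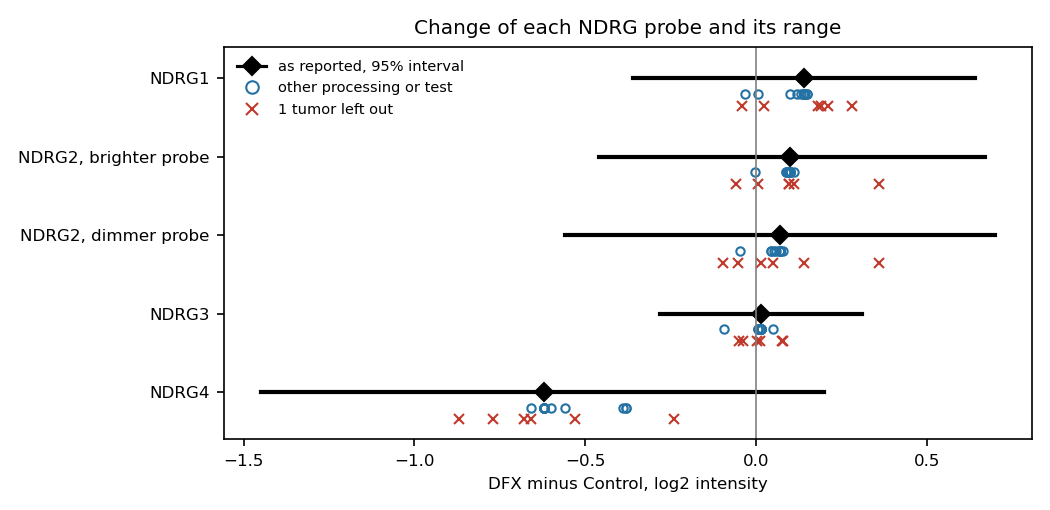
Difference between DFX and Control on the log2 scale (x axis) for each NDRG probe (y axis). Diamonds with bars are the reported differences with 95% intervals, circles other processing or tests, and crosses the differences with 1 tumor left out. Every 95% interval includes 0, and the NDRG4 crosses run from -0.87 to -0.24.

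Within-slide positions gave mixed directions for 3 of the members. A column of the slide held tumors of both groups in 2 cases. In column 2 (Control replicate 1 and DFX replicate 2) the DFX tumor differed from the Control tumor by -0.04 for NDRG1, -0.44 for NDRG2, 0.24 for NDRG3 and -0.24 for NDRG4. In column 4 (Control replicate 3 and DFX replicate 3) the differences were 0.74, 0.44, -0.24 and -1.57 in the same order. NDRG1, NDRG2 and NDRG3 changed sign between the columns. NDRG4 was lower in the DFX tumor of both, which was fixed in advance because its groups do not overlap. With column as a random block the 4 differences were 0.12, 0.11, 0.014 and -0.60.

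The members were also compared with each other, tumor by tumor, in 3 pairs. The NDRG1 difference exceeded that of NDRG4 by 0.76 (SE 0.58, exact permutation p = 0.4). It exceeded that of NDRG3 by 0.13 (SE 0.31, exact permutation p = 0.8) and that of NDRG2 by 0.037 (SE 0.29, exact permutation p = 0.9). All 3 had an adjusted p of 0.9, and since 3 tumors against 3 cannot go below 0.1, none of them could have passed 0.05. Pairs without NDRG1 were not compared.

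Genes known to regulate NDRG1 were then read in the same tumors, at the brightest tested probe of each gene. Over all genes, 3.68% were called higher and 4.29% lower in DFX tumors, and the median difference was -0.012. No tested regulator (0 of 17) was called in either direction (18 listed, MYCN without a tested probe), with 7 higher, 10 lower and a median of -0.023. Leaving out any Control tumor gave 1 called regulator, and leaving out DFX replicate 2 gave 2. HIF1A, the oxygen-regulated subunit of HIF-1, differed by -0.023 (limma adjusted p = 0.98). EPAS1, which encodes HIF-2α, differed by 0.24 (limma adjusted p = 0.627), with 13.63, 13.84 and 13.57 in Control and 13.90, 13.90 and 13.97 in DFX tumors. Every DFX value of EPAS1 lay above every Control value. ARNT, the shared partner of both subunits, differed by -0.23 (limma adjusted p = 0.65), with every DFX value below every Control value. EGLN3, an oxygen-sensing prolyl hydroxylase that is itself hypoxia-inducible, differed by 0.46 (limma adjusted p = 0.723). Among the 17 regulators, groups did not overlap for 2 higher and 1 lower in DFX tumors, against 15.5% of all tested probes.

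MYC, whose product represses NDRG1, read 11.76, 12.55 and 12.91 in Control and 12.13, 11.99 and 12.05 in DFX tumors. The DFX values were tightly grouped inside the Control range, and the difference was -0.35 (limma adjusted p = 0.752). SGK1, a kinase that phosphorylates NDRG1, differed by -0.064 (limma adjusted p = 0.963).

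Of 25 genes for reported partners and effectors of NDRG1, 1 was called higher and 2 lower, with a median of 0.043. Leaving out replicate 1 of either group or DFX replicate 3 left no call (0 of 25), and leaving out DFX replicate 2 left 1. ROCK2, a kinase of the actin cytoskeleton, was higher by 0.30 (limma adjusted p = 0.594). STAT3, a transcription factor of cytokine signaling, was called lower, with a difference of -0.29 (limma adjusted p = 0.58). SMAD4, a transducer of TGF-β signaling known to be homozygously deleted in BxPC-3, was dim, with 2 of 3 Control arrays and 0 of 3 DFX arrays well above background. The probe was 1 of the 2 called lower (limma adjusted p = 0.555). Because the gene is deleted in this line, its signal cannot be read as SMAD4 of the tumor cells, and its source was not tested. The lowest signal well above background on each array set a bound of at least 1.16-fold lower for this probe in DFX tumors. That bound deals only with the dim arrays and is not a limit on the true difference, which was smaller under some settings. Over 18 other settings of processing, test or tumors, the log2 difference ran from -1.24 to -0.14. CDH1, the epithelial cadherin, differed by 0.063 (limma adjusted p = 0.897), CD82, a metastasis-suppressing tetraspanin, by 0.017 (limma adjusted p = 0.984) and CDKN1A, the cell cycle inhibitor p21, by -0.19 (limma adjusted p = 0.804).

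Among 25 tested hypoxia-inducible genes (26 listed, BNIP3 without a tested probe), 3 were called higher and 0 lower, and 20 of 25 had a positive difference with a median of 0.18. Over all genes, 3.68% were called higher. Groups did not overlap for 1 of the 25, against 15.5% of all tested probes. ANGPTL4, a secreted inhibitor of lipoprotein lipase, read 12.88, 13.25 and 12.38 in Control and 13.32, 13.57 and 13.88 in DFX tumors, with no overlap. Its difference was 0.75 (SE 0.26, limma adjusted p = 0.562). PFKFB4, which sets the level of a glycolytic activator, was higher by 0.71 (limma adjusted p = 0.57), and LOX, a collagen cross-linking enzyme, by 0.54 (limma adjusted p = 0.58), both with overlapping groups. VEGFA, the angiogenic growth factor, differed by 0.24 (limma adjusted p = 0.749), and CA9, a carbonic anhydrase, by 0.46 (limma adjusted p = 0.671). The list depended on single tumors. Leaving out Control replicate 3 left no call (0 of 25), as did leaving out either DFX replicate 2 or 3. Leaving out Control replicate 1 left 1 call, and the median was 0.042 without DFX replicate 3. It also depended on the test, with no call (0 of 25) and a median of 0.047 with array quality weights, no call without moderation of the variances, and 1 call by the Kruskal-Wallis H test.

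Of 16 iron-status genes, 1 was called higher and 1 lower, with a median of 0.063. Without DFX replicate 1 or DFX replicate 2 none was called (0 of 16), without Control replicate 3 there was 1 call, and without Control replicate 2 or DFX replicate 3 there were 3. TFRC, the transferrin receptor, whose mRNA is stabilized by iron regulatory proteins when iron is short, was lower in DFX tumors. It read 11.94, 12.06 and 12.29 in Control and 11.59, 11.70 and 11.78 in DFX tumors, with no overlap. The TFRC difference was -0.41 (SE 0.13, limma adjusted p = 0.553). HMOX1, which releases iron from heme, was higher by 0.36 (SE 0.11, limma adjusted p = 0.546). FTH1, the ferritin heavy chain, differed by 0.069 (limma adjusted p = 0.885). RRM2, the iron-containing subunit of ribonucleotide reductase, differed by 0.04 (limma adjusted p = 0.972). At the dose used here, the paper reports less ferritin in serum and less ferritin-H protein in tumors than with vehicle. The arrays read RNA and not protein, and whether these tumors were short of iron was not tested.

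**Figure D3:**
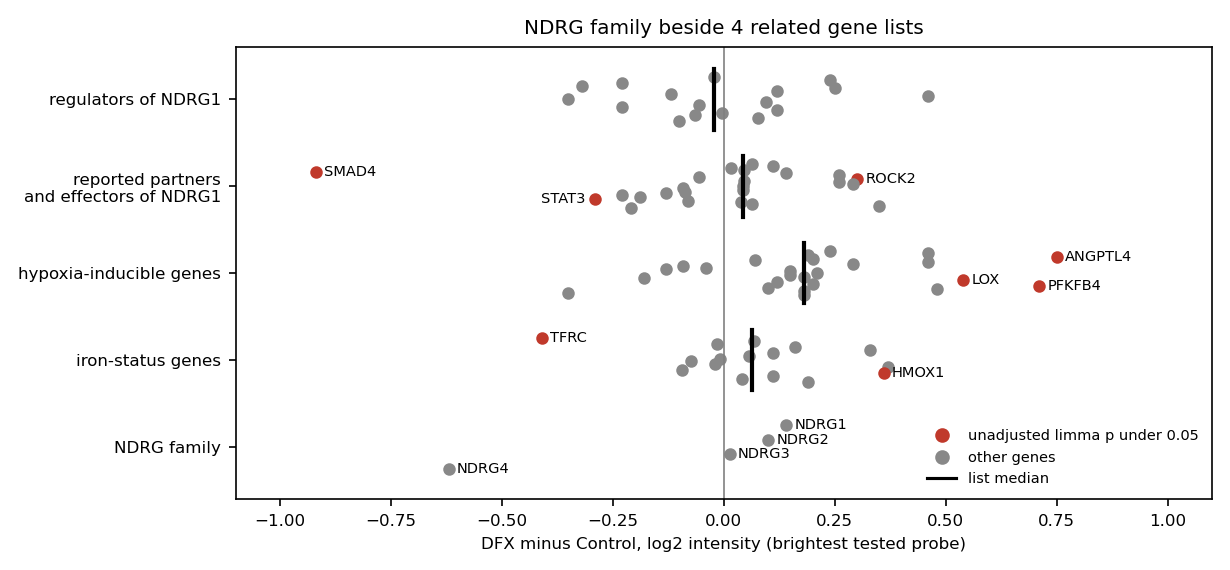
Difference between DFX and Control on the log2 scale (x axis) for the NDRG genes and for the genes of 4 related lists, each at its brightest tested probe. Red points have an unadjusted limma p under 0.05 and vertical bars are list medians. The hypoxia-inducible genes have a median of 0.18, and NDRG1 stands at 0.14.

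Tumor by tumor, after normalization, NDRG1 was highest and lowest in the same tumors as the hypoxia-inducible genes. Centered on its mean over the 6 tumors, NDRG1 stood at 0.028, 0.067 and -0.30 in Control and at -0.21, -0.012 and 0.43 in DFX tumors. The median of the 25 hypoxia-inducible genes stood at -0.12, 0.13 and -0.23 in Control and at -0.086, 0.054 and 0.35 in DFX tumors. Control replicate 3 was lowest and DFX replicate 3 highest in both. Before normalization the NDRG1 processed signal was lowest in DFX replicate 1 (79121), and Control replicate 3 (99728) was the highest of the Control tumors. The relation was not read before normalization. Over the 6 tumors Pearson's r was 0.92 (exact permutation p = 0.0139, adjusted p = 0.0556 over 4 lists) and Spearman's rho was 0.83 (exact permutation p = 0.0583, adjusted p = 0.117). Without Control replicate 3 and DFX replicate 3, the tumors farthest from the median of the list, r was 0.50, so the relation rested on those tumors. With each group centered on its own mean, r was 0.92 (exact permutation within groups, p = 0.0556), and it was 0.79 over the 3 Control tumors alone and rounded to 1 over the 3 DFX tumors alone, values that rest on 3 points each.

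The other 3 lists were read in the same way, and all 4 relations were chosen after values had been seen. For the partners and effectors r was 0.79 (exact permutation p = 0.0597, adjusted p = 0.119), rho was 0.83 (exact permutation p = 0.0583, adjusted p = 0.117), and r was 0.085 without the same pair of tumors. For the iron-status genes r was 0.46 (exact permutation p = 0.36, adjusted p = 0.48) and rho 0.31 (exact permutation p = 0.564, adjusted p = 0.714), with r at 0.37 without Control replicates 2 and 3. For the regulators r was 0.18 (exact permutation p = 0.736) and rho 0.20 (exact permutation p = 0.714), adjusted p the same, with r at 0.54 without Control replicate 1 and DFX replicate 2. None of the 4 passed 0.05 after adjustment.

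**Figure D4:**
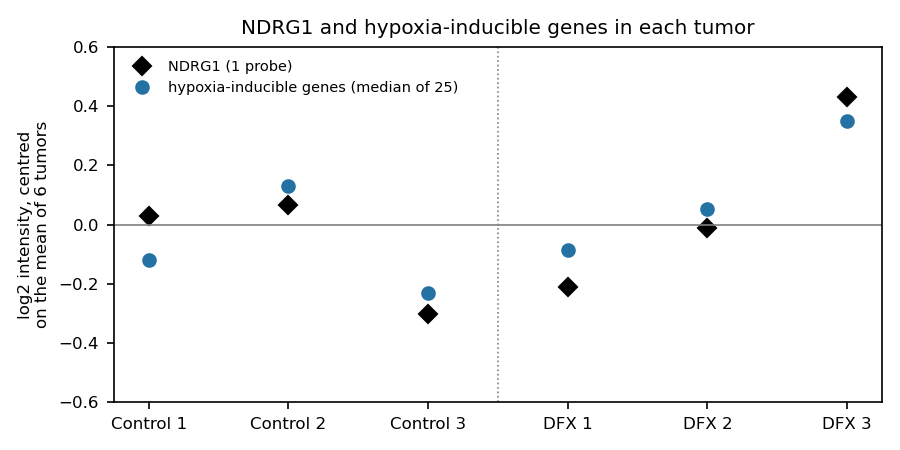
Normalized log2 intensity centered on the mean of the 6 tumors (y axis) for NDRG1 (diamonds) and for the median of 25 hypoxia-inducible genes (circles) in each tumor (x axis). Both are lowest in Control replicate 3, at -0.30 and -0.23, and highest in DFX replicate 3, at 0.43 and 0.35.

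The genes whose profile over the 6 tumors was most like that of a member were found by the root mean square difference of centered log2 values, among 14181 genes. For NDRG1 they were KDM4D, a histone demethylase, at 0.0415, KRTAP12-2, a keratin-associated protein, at 0.0656 and PIM1, a serine/threonine kinase, at 0.0665, against a median of 0.292 over all genes. For NDRG2 they were C11orf93 at 0.05, STX19, a syntaxin, at 0.0586 and ASAH1, the lysosomal acid ceramidase, at 0.0622 (median 0.315). For NDRG3 they were PPP2R5D, a regulatory subunit of protein phosphatase 2A, at 0.0191, VARS, the valyl-tRNA synthetase, at 0.0255 and ITPA, a nucleotide pyrophosphatase, at 0.0257 (median 0.182). For NDRG4 all 3 were cytidine deaminase genes, APOBEC3B at 0.11, APOBEC3C at 0.112 and APOBEC3F at 0.133 (median 0.516). Their differences between groups were -0.59, -0.58 and -0.59, none of them called. All genes in this paragraph were picked for their likeness to a member in these same tumors. Distances below the median, and group differences near that of the member, were therefore fixed by the choice. These deaminase genes are similar in sequence, so their probes may share signal and the 3 are not separate observations.

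Markers of the tissue and of other cell types were read beside the members. All 10 markers of pancreatic ductal epithelium were well above background on every array. Of these, 3 were called higher in DFX tumors (EPCAM, KRT8 and KRT18), and the summed level of all 10 was 19.38 to 19.44 in Control tumors and 19.46 to 19.48 in DFX tumors on the log2 scale, without overlap. Of 13 host stroma and blood markers 11 were tested, with PECAM1 and LUM called higher and DCN and HBA2 lower. Over all genes, 3.68% were called higher and 4.29% lower. The summed log2 level of the 11 was 14.17 to 14.72 in Control tumors and 13.72 to 13.98 in DFX tumors, without overlap. Each sum of markers adds linear intensities, so bright probes weigh most. The mean of HBA2 went from 12.46 to 10.53 and that of DCN from 11.49 to 10.19. The mean of PECAM1 went up from 5.62 to 6.88 and that of LUM from 7.03 to 7.90. COL1A1, the brightest of the list, differed by -0.091. Of 12 glial and neuronal markers 7 were tested (summed log2 level 12.53 to 12.71 in Control and 12.69 to 12.87 in DFX tumors), and GFAP, SLC1A2, OLIG2, SYP and S100B had no tested probe. SLC1A3, a glial glutamate transporter, was called higher in DFX tumors, by 0.36 (limma adjusted p = 0.582). Groups did not overlap for 2 of the 7, both higher in DFX tumors, against 15.5% of all tested probes. They were SLC1A3 and GAP43, and GAP43 was well above background on 0 of 3 Control and 0 of 3 DFX arrays. MAP2, a neuronal microtubule protein, read 5.17, 4.19 and 6.72 in Control and 4.49, 5.17 and 4.95 in DFX tumors. MAP2 was highest in Control replicate 3, as NDRG4 was, and was well above background on 2 of 3 Control and 3 of 3 DFX arrays. SNAP25 was also highest in Control replicate 3, while AQP4, SLC1A3 and RBFOX3 were lowest there. Of 11 heart and skeletal muscle markers 9 were tested (11.73 to 12.21 and 12.08 to 12.70), and MYH7 and ACTC1 had no tested probe. In Control replicate 3, NDRG4 stood 1.08 above its mean over the tumors. The median of the centered markers there was 0.043 for host stroma and blood, -0.011 for glia and neurons and -0.028 for muscle. For pancreatic ductal epithelium it was -0.36 there, against -0.059 to 0.19 in the other tumors. Among the host stroma and blood markers, DCN was highest in Control replicate 3 (12.07), while COL1A1 was lowest there (12.38). The part of these markers in the NDRG values was not tested.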

How the data were processed

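RNA of 6 BxPC-3 xenograft tumors, 3 Control and 3 DFX by the sample labels, was measured on 6 one-color arrays. The authors deposited Feature Extraction files with linear intensities, a p-value of each spot against its background and flags, and a table of intensities they had normalized. The file headers give version 10.7.1.1 and the processing notes 9.5.1.1. The methods name log2 transformation, quantile normalization and a filter on a detection p-value of 0.05, and give the Kruskal-Wallis H test for all animal work without naming the arrays. That test was an alternative here.

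Here the deposited processed signal intensity was log2-transformed and quantile-normalized over 58717 non-control spots. 1398 flagged spot values were left out, spots were averaged per probe, and a probe was tested if the median p-value of its spots was below 0.05 on each of 6 arrays (31807 of 50599). limma 3.58.1 in R 4.3.3 (lmFit, eBayes, prior degrees of freedom 2.04) compared groups two-sided, and p-values were adjusted over all these probes by Benjamini-Hochberg. The brightest tested probe stood for a gene. The procedure was tested on simulated data. The deposited table differed from a quantile normalization of the linear signal by a median of 0.185%, and served as an alternative.

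Named were the NDRG genes, list genes with an unadjusted p under 0.05, 16 set genes, and the 3 most similar genes of each member. Some of these genes are left out of the text. Called marker genes, and MAP2, SNAP25, AQP4, RBFOX3, GAP43 and COL1A1, were named after their values were seen. Members and lists were chosen with earlier results of these data known. Replicate numbers were not treated as pairs, since deviations of same-numbered tumors correlated at 0.0274, 0.0267 and 0.0158. The labels do not number the mice, so p-values measure the spread between these tumors. Gene names are those of the array design.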

Additional observations from a re-analysis of the deposited data

How the results depend on the processing

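Each member was refitted under 20 alternatives, of which 71 of 80 values kept their direction and their side of the threshold, 7 changed sign and 2 passed it. Alternatives that changed only the test, the probe filter or the block by replicate number could not change a direction. Nor could the mean of all probes for a member with 1 probe. Those matches of direction were fixed in advance and do not measure stability. By scaling and weights, NDRG1 was -0.034 with array quality weights, and with median scaling, which moved the median of all tested probes from -0.025 to -0.10, NDRG2 was -0.0047, its dimmer probe -0.046 and NDRG3 -0.093. The same scaling turned the median of the partners and effectors to -0.075 and that of the iron-status genes to -0.042, and left that of the hypoxia-inducible genes at 0.082. By the Kruskal-Wallis H test NDRG4 (-0.62) passed 0.05 unadjusted, as does every probe without overlap with 3 tumors against 3, and 4927 probes passed in place of 2675. Leaving out 1 tumor at a time gave ranges of -0.042 to 0.28 for NDRG1, -0.059 to 0.36 for NDRG2, -0.098 to 0.36 for its dimmer probe, -0.05 to 0.079 for NDRG3, -0.87 to -0.24 for NDRG4 and 1889 to 2717 for the probes called. NDRG1 changed sign without DFX replicate 3, NDRG2 without Control replicate 3, and NDRG3 without Control replicate 1 (-0.039) or DFX replicate 2. NDRG2 passed the threshold without Control replicate 1. The NDRG1 difference minus that of NDRG2 ran from -0.17 to 0.20, minus NDRG3 from -0.12 to 0.27 and minus NDRG4 from 0.26 to 1.07. The causes were not tested. With the replicate number as a block, the pairing being unsupported by the tumors, no call of a member changed. The differences (0.14 for NDRG1, 0.10 for NDRG2, 0.013 for NDRG3 and -0.62 for NDRG4) could not move. Each replicate number holds 1 tumor of each group. The relation of NDRG1 to the hypoxia-inducible genes had r from 0.83 to 0.95 under 5 other processings, added after the data were seen, 0.50 without the pair of farthest tumors, and 0.92 with each group centered on its own mean, no longer past 0.05. NDRG4, at 2.16 to 4.53 times its background, is the member whose signal limits it most. Of the called list genes, ROCK2 and LOX passed in 9 of 19 alternatives, ANGPTL4 and PFKFB4 in 12, STAT3 in 13, TFRC and HMOX1 in 16, and SMAD4 in 12 of 18.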
